A study of Mus musculus with 42 samples.

Results

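The genes described here are 31 genes that mark B cells, followed in 42 RNA libraries of mouse macrophages. They were taken by name from a list of B cell genes and kept where the mean deposited value was at least 10 in both the old and the young table. Of the 31 genes, 30 passed, of 47643 genes in all. Vpreb3 did not, with a mean of 6.13 in the young table, and its values are given apart. Of all genes, 12086 had enough reads for the comparison of ages.

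The libraries came from C57BL/6 mice of 18 to 20 months (old) and of 2 to 3 months (young). Macrophages were taken at 7 zeitgeber times, ZT0, 4, 8, 12, 16, 20 and 24, counted in hours, with 3 libraries for each age and time. No transgene, deletion or drug is named in the labels. The labels do not say which tissue the macrophages came from or whether each library is a separate animal, so p-values measure the spread between libraries, which may be technical. Reads in genes were between 4864402 and 15587030 in old libraries and between 7433159 and 13574542 in young libraries. The labelled cell type had its defining genes. Lyz2, the lysozyme of macrophages, had 159544 to 287434 rescaled reads in old libraries and 194187 to 305201 in young libraries. Levels across ages are given as rescaled reads, which are recovered reads of all 42 libraries divided by 1 joint set of size factors.

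B cells carry a receptor made of paired immunoglobulin heavy and light chains, held at the surface by the Cd79a and Cd79b chains that pass the signal on. The transcription factors Ebf1 and Pax5 set up and hold B cell identity. In body cavities of mice, B-1 cells, a self-renewing lineage with a limited and often self-reactive repertoire, live beside macrophages and beside B-2 cells like those of lymphoid follicles. Immunoglobulin chains are products of the B lineage, whereas Cd55, Cd72, Fcmr and Pou2f2 are known from other blood cells too. In RNA from a whole harvest, fewer cells of a type and less RNA per cell cannot be told apart.

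Over the day, 22 of the 30 genes were higher in old libraries and 0 were lower, in limma's test of the mean over 7 times at a Benjamini-Hochberg adjusted p under 0.05. Among all genes tested, 12.0% were higher and 11.7% were lower in old libraries, and 11.4% and 11.7% among the 11791 with a mean of at least 10 rescaled reads in each age. The median log2 fold, old minus young, was 0.58 over the 30 genes and 0.00 over all genes. The fold was above 0 in 29 of the 30 genes, and in 17 of them at all 7 times. In none of the 30 did the 21 old libraries lie wholly outside the range of the 21 young libraries. Counts of folds above 0 and of ranges that do not overlap were not made over all genes.

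**Figure D1:**
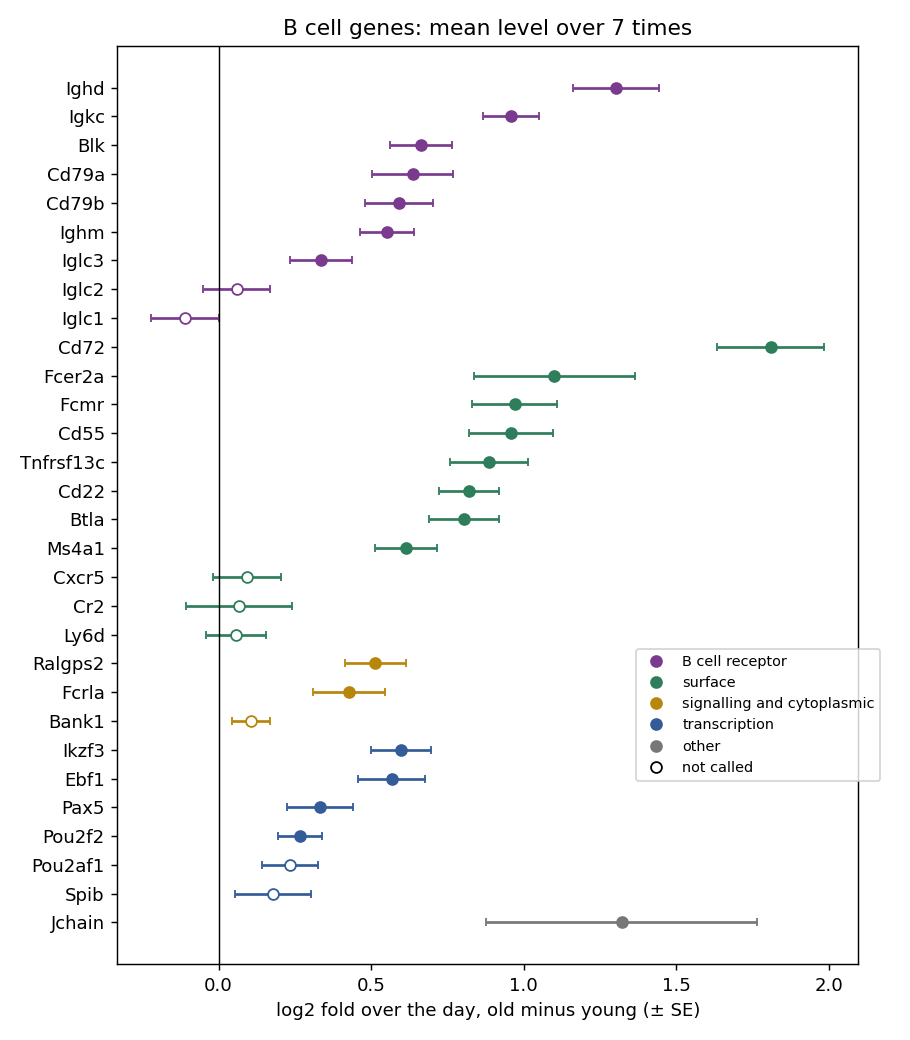
The log2 fold in level over the day, old minus young, is plotted for each of the 30 genes with its standard error (n = 21 libraries each), grouped by role. Filled points passed an adjusted p of 0.05, and Cd72 had the largest fold, 1.81.

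Summed over the 30 genes, old libraries held 25800, 43595 and 81255 rescaled reads at the lowest, the median and the highest. Young libraries held 23531, 30713 and 40553. Of the 21 old libraries, 13 lay above the highest young library. As a share of the reads in genes this was 0.283% to 0.974% in old libraries and 0.264% to 0.472% in young libraries. Old libraries were more spread, with a coefficient of variation of 30.7% against 13.9% in young libraries. The sum without immunoglobulin genes and Jchain gave 13634 to 43651 in old libraries and 13886 to 23051 in young libraries, and 11 old libraries were above all young ones.

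**Figure D2:**
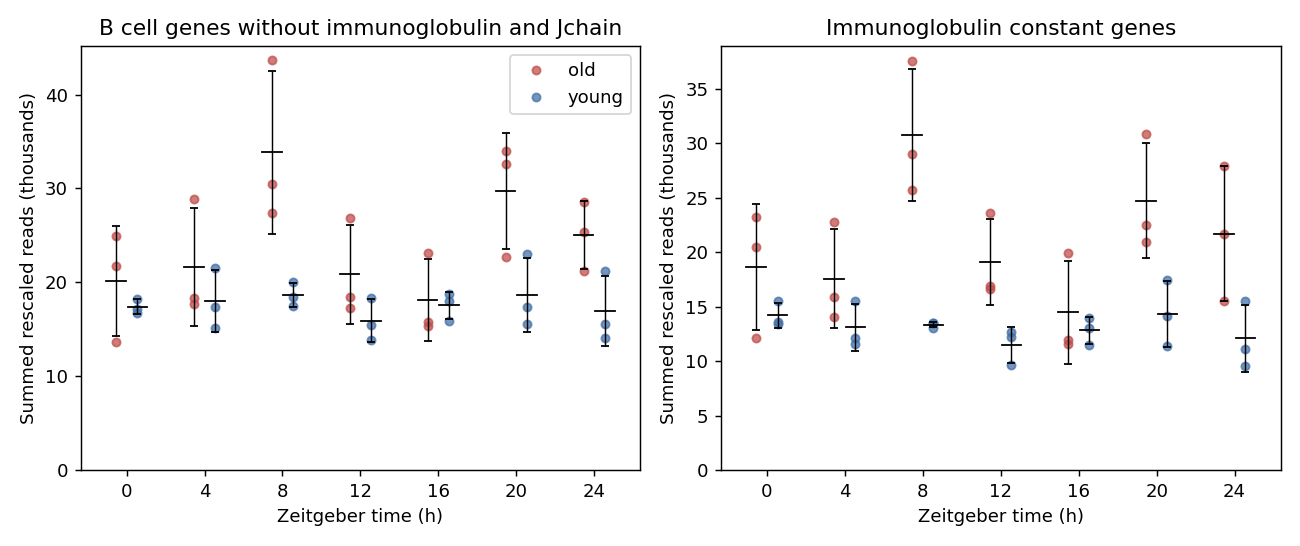
Summed rescaled reads (in units of 1000) are plotted against zeitgeber time for the B cell genes without immunoglobulin and Jchain (left) and for the 6 immunoglobulin constant genes (right). Points are libraries, bars are means and whiskers SD (n = 3), and the mean of the old ZT8 libraries and their second replicate lie highest in both panels.

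Of the 9 genes of the B cell receptor and its first kinase, 7 were higher in old libraries. Ighm, the heavy chain of IgM, on chromosome 12, had 6009, 10748 and 21427 rescaled reads at the lowest, median and highest in old libraries, against 5067, 7116 and 9736 in young libraries. Its log2 fold was 0.55 ± 0.09 (SE, adjusted p = 5.81e-06). Igkc, the kappa light chain constant gene at chr6:70726435-70726966, had 3747, 6987 and 10953 in old libraries and 2142, 3485 and 4684 in young libraries, and 17 old libraries lay above all young ones. The fold of Igkc was 0.96 ± 0.09 (SE, adjusted p = 1.39e-10). Ighd, the heavy chain of IgD, which mature B-2 cells carry in large amounts and B-1 cells in small amounts, had 179.9, 584.6 and 1065 in old libraries and 131.9, 235.8 and 395 in young libraries. It was higher by 1.30 ± 0.14 (SE, adjusted p = 3.40e-09), and 18 old libraries were above the young range.

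The receptor's signalling chains were higher too, with folds nearer that of Ighm (0.55) than those of Igkc (0.96) and Ighd (1.30). Cd79b averaged 1664 ± 566 in old libraries and 1066 ± 241 in young libraries (SD, n = 21 each), with a log2 fold of 0.59 ± 0.11 (adjusted p = 7.12e-05). Cd79a, with far fewer reads, averaged 83.0 ± 25.3 in old libraries and 52.9 ± 16.3 in young libraries, and its fold was 0.64 ± 0.13 (adjusted p = 3.08e-04). Blk, a Src-family kinase of B cells, averaged 497.8 ± 166 in old libraries and 302.6 ± 66.0 in young libraries, a fold of 0.66 ± 0.10 (adjusted p = 2.96e-06).

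The lambda light chain genes did not all follow the kappa gene. Only Iglc3 passed the test, with 852.5 ± 306 rescaled reads in old libraries and 644.4 ± 115 in young libraries and a log2 fold of 0.33 ± 0.10 (SE, adjusted p = 0.0126). Without the libraries of ZT8 that call was lost, at 0.23 (adjusted p = 0.15). Iglc1 averaged 582.2 ± 227 in old libraries and 603 ± 136 in young libraries, a fold of -0.11 ± 0.11 (adjusted p = 0.54). Iglc2 averaged 1122 ± 448 and 1020 ± 177 in old and in young libraries, a fold of 0.06 ± 0.11 (adjusted p = 0.755). Their coding ends, on the minus strand of chromosome 16 in GENCODE M21 on GRCm38, show how far these genes differ in that stretch. Capitals mark each base at which the 3 genes do not all have the same letter in the last 90 annotated coding bases.
Iglc1, chr16:19061755-19061844: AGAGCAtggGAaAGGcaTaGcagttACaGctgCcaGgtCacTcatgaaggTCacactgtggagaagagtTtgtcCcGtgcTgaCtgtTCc
Iglc2, chr16:19198539-19198628: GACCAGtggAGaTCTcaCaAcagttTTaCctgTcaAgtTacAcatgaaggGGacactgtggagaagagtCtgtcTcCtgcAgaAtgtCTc
Iglc3, chr16:19065368-19065457: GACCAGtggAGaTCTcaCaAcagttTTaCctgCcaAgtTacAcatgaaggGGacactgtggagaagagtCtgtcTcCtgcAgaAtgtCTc
Iglc2 and Iglc3 differ at 1 of these 90 bases and are 98.9% identical there, so a read within this stretch may not tell them apart. Bases past the coding end, which reads of 3′ end libraries can cover, were not compared. How well reads were split between Iglc2 and Iglc3 is therefore not known. Iglc1 differs from Iglc2 at 29 bases and from Iglc3 at 28.

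The ratio of kappa to summed lambda reads was 1.93, 2.78 and 4.09 in old libraries at the lowest, median and highest, and 1.30, 1.49 and 2.18 in young libraries. Of the 21 old libraries, 19 were above the highest young one. Since the 3 lambda genes are summed, a read given to the wrong one of them does not change this ratio. Reads left out for matching more than 1 of them would be missing from the sum, and whether any were is not known. Ighd reads as a percentage of Ighm reads were 2.67, 5.27 and 12.7 in old libraries and 1.83, 3.15 and 5.27 in young libraries, and 11 old libraries were above the young range. These ratios were formed with the values known and are given with no test.

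**Figure D3:**
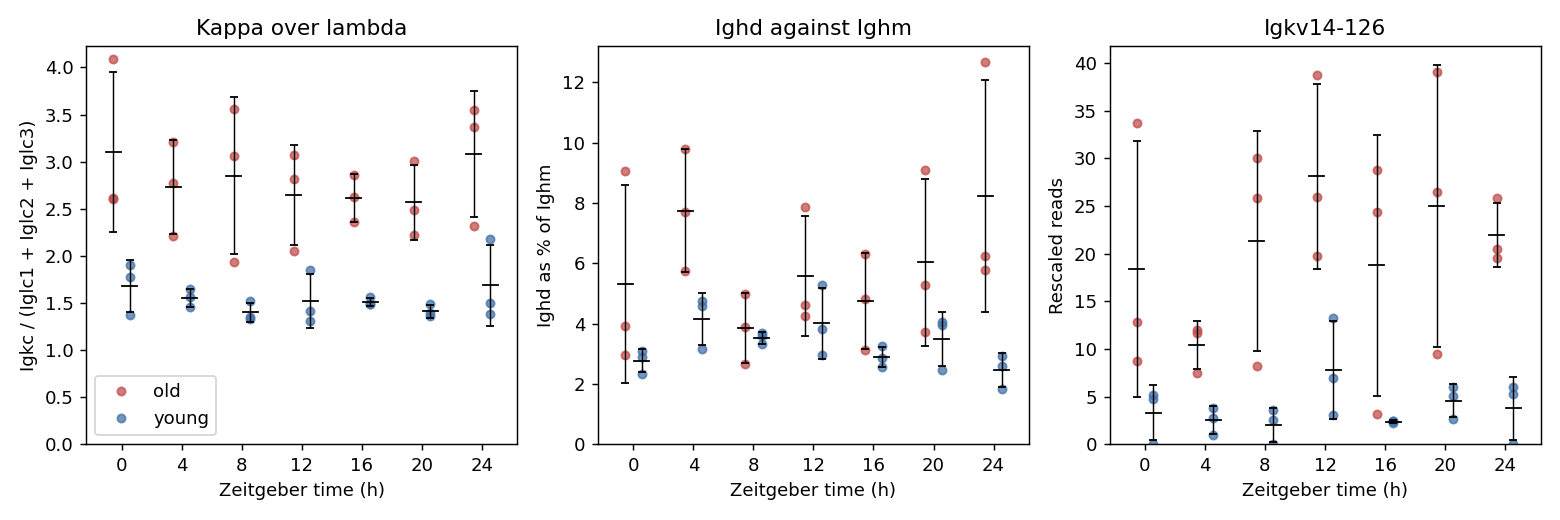
For each library, the kappa to lambda ratio, Ighd as a percentage of Ighm, and the rescaled reads of the variable segment Igkv14-126 are plotted against zeitgeber time. Points are libraries, bars are means and whiskers SD (n = 3). In the first panel 19 of 21 old libraries lie above every young library.

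Variable segments, which give each antibody its binding site, were nearly absent from these 3′ end libraries. Of 346 segments in the tables, 210 had no read in any library and 3 reached a mean of 10 over all libraries. Ighv11-2 and Igkv14-126 reached it only through the old libraries, so their difference between ages is given as values with no test. They were thus picked through their values in these data. Mouse B-1a cells are known to pair this heavy and this light segment in antibodies against phosphatidylcholine. The lines give the last 120 coding bases of each, in the gene's direction, from GENCODE M21 on GRCm38, with no capitals.
Ighv11-2, chr12:114048241-114048360, minus strand: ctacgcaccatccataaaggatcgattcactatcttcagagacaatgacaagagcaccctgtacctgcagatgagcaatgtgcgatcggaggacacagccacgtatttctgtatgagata
Igkv14-126, chr6:67896523-67896642, plus strand: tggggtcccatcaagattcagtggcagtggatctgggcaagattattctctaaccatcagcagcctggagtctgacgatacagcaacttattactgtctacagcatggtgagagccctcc
Igkv14-126 had 3.21, 20.5 and 39.0 rescaled reads at the lowest, median and highest in old libraries, against 0, 3.09 and 13.3 in young libraries. The mean was 20.6 ± 10.6 in old libraries and 3.77 ± 2.98 in young libraries (SD, n = 21 each), and 13 old libraries were above the young range. Ighv11-2 had 0, 27.8 and 78.8 in old libraries and 0, 3.31 and 32.2 in young libraries, with means of 31.7 ± 20.7 and 6.35 ± 7.92 in old and in young libraries. The ranges of both overlap between the ages. The third segment, Igkv2-109, averaged 11.6 ± 9.56 in old libraries and 11.3 ± 9.70 in young libraries (adjusted p = 0.856). Read counts this low carry large counting error.

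Of the 11 surface genes, 8 were higher in old libraries. Cd72, an inhibitory co-receptor of the B cell receptor at chr4:43446462-43454628, had 70.9, 131.4 and 440.5 rescaled reads at the lowest, median and highest in old libraries, against 10.1, 44.4 and 74.7 in young libraries. All but 1 of the old libraries lay above the young range, and the log2 fold was 1.81 ± 0.18 (SE, adjusted p = 2.07e-10). Ms4a1, which encodes CD20, had 2198, 4048 and 7845 in old libraries and 1811, 2601 and 3669 in young libraries. The fold of Ms4a1 was 0.61 ± 0.10 (adjusted p = 1.17e-05), and 12 old libraries were above the young range.

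The other surface genes that passed were receptors and regulators. Fcer2a (CD23, the low-affinity IgE receptor of follicular B cells) was higher by 1.10 ± 0.27 on the log2 scale (SE, adjusted p = 0.00165) and Fcmr, the receptor for the Fc part of IgM, by 0.97 ± 0.14 (adjusted p = 7.41e-07). Cd55, which protects cells from complement, had a fold of 0.96 ± 0.14 (adjusted p = 7.95e-07). Tnfrsf13c, the receptor of the survival factor BAFF, averaged 276.5 ± 117 in old libraries and 143.6 ± 42.8 in young libraries, a fold of 0.89 ± 0.13 (adjusted p = 1.11e-06). Cd22, an inhibitory lectin, had a fold of 0.82 ± 0.10 (adjusted p = 2.60e-08) and the inhibitory receptor Btla one of 0.80 ± 0.11 (adjusted p = 7.41e-07). The rest of the surface group did not pass. Cr2, the complement receptor CD21, averaged 117.5 ± 75.9 in old libraries and 97.2 ± 20.8 in young libraries (SD, n = 21 each, adjusted p = 0.836 by limma). Cxcr5, the receptor of the chemokine CXCL13, averaged 274.8 ± 101 in old libraries and 244.6 ± 57.9 in young libraries (adjusted p = 0.603). Ly6d, a marker of B lineage commitment, averaged 2388 ± 901 and 2187 ± 401 in old and in young libraries (adjusted p = 0.735).

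Among genes inside the cell, 2 of 3 signalling genes passed. Ralgps2, an exchange factor for Ral proteins, was higher by 0.51 ± 0.10 (SE, adjusted p = 1.50e-04) and Fcrla, an Fc receptor-like protein kept inside B cells, by 0.43 ± 0.12 (adjusted p = 0.00577). The adaptor Bank1 averaged 2262 ± 501 in old libraries and 2073 ± 313 in young libraries and did not pass (fold 0.11, adjusted p = 0.241).

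Of the 6 transcription genes, 4 were higher in old libraries. Ikzf3 (Aiolos) had the largest fold, 0.60 ± 0.10 (SE, adjusted p = 8.45e-06), with 347.5, 728.1 and 1260 rescaled reads at the lowest, median and highest in old libraries and 329.7, 444.6 and 651.4 in young libraries. Ebf1 followed at 0.57 ± 0.11 (adjusted p = 1.19e-04), with Pax5 at 0.33 ± 0.11 (adjusted p = 0.0222) and Pou2f2 (Oct-2) at 0.27 ± 0.07 (adjusted p = 0.00441). Pou2af1, the co-activator that Oct factors recruit in B cells, missed the threshold at 0.23 ± 0.09 (adjusted p = 0.0551). Its adjusted p ranged from 0.0134 to 0.105 as single libraries were left out. Spib had a fold of 0.18 ± 0.12 (adjusted p = 0.325).

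Jchain, which joins IgM and IgA into secreted polymers, was the most uneven of the genes. It had 0, 26.6 and 667 rescaled reads at the lowest, median and highest in old libraries and 0, 14.3 and 62.8 in young libraries, with a log2 fold of 1.32 ± 0.44 (SE, adjusted p = 0.0251). Without replicate 3 of old ZT12, which had 355.0, the adjusted p was 0.0517. The highest library was replicate 1 of old ZT16. It also held the most Igha (280.0) and Ighg1 (76.9) reads, the constant genes of IgA and IgG1. Its Ighg2b, the constant gene of IgG2b, was the lowest of the old libraries, at 23.5. Among genes of antibody-secreting cells, it had 3069 reads of Xbp1 (old median 2890) and 287.5 of Prdm1 (old median 252.0). Its Ms4a1, at 2341, was near the bottom of the old range. Vpreb3, related to the surrogate light chain of B cell precursors, had 0, 19.0 and 39.9 in old libraries and 0, 3.47 and 14.7 in young libraries. Since only its old level lifts it past the filter, no test is given, and 12 old libraries were above the young range.

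Promoters from RefSeq (GRCm38.p6), 250 bases before to 50 after each start, were found for 19 of the 31 genes. The octamer ATGCAAAT, which Oct factors bind, was searched on both strands and occurred in 1 of the 19 and in 1.97% of the 27025 genes of the table. The early B cell factor core TCCCNNGGG occurred in 2 of the 19, against 7.48% of all genes, and the PU.1 or Spi-B site GAGGAAGT in 2 of the 19, against 3.69%. The lines show these matches, which fall in 4 surface genes and Vpreb3, in the gene's direction with the motif in capitals. In Vpreb3 and Cd72 the motif lies on the other strand and reads as its reverse complement.
Vpreb3, octamer, chr10:75948243-75948274: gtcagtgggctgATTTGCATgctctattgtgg
Cd22, early B cell factor core, chr7:30879057-30879089: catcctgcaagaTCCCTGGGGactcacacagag
Cd55, early B cell factor core, chr1:130462830-130462862: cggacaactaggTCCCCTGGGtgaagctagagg
Cd72, PU.1 or Spi-B site, chr4:43454656-43454687: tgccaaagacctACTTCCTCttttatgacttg
Btla, PU.1 or Spi-B site, chr16:45224307-45224338: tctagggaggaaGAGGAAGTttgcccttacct
A match is a run of letters and not a measured site.

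By time of day, the number of genes called differed between times, but limma's test of an age by time difference called 0 of the 30 (5 with an unadjusted p under 0.05, lowest adjusted p = 0.91). Over all 12086 genes that test called 3, and 612 had an unadjusted p under 0.05. At ZT8, 12 of the 30 genes were higher in old libraries (background 1.98% of all genes), at ZT12 2 (1.22%), at ZT20 7 (1.05%) and at ZT24 7 (1.09%). No gene of the 30 was called at ZT0, ZT4 or ZT16 by limma, where 0.496%, 0.678% and 0.778% of all genes were higher. At these times 8, 7 and 3 of the 30 had an unadjusted p under 0.05, a count not made over all genes. None of the 30 was lower at any time. The median log2 fold over the 30 genes was 0.28 at ZT0, 0.40 at ZT4, 0.90 at ZT8, 0.59 at ZT12, 0.11 at ZT16, 0.74 at ZT20 and 0.78 at ZT24. ZT0 and ZT24 are the same hour of the day, yet these medians differ, a difference that was not tested. In all, 16 of the 30 genes were called at 1 or more times, a count not made over all genes.

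Igkc was called at most times, with log2 folds of 1.60 ± 0.24 at ZT8 (SE, adjusted p = 7.72e-05), 1.07 at ZT12, 1.14 at ZT20 and 1.16 at ZT24. Cd22 was called at ZT8 (1.40 ± 0.26, adjusted p = 0.00129), at ZT20 (1.09) and at ZT24 (1.23). Cd72 had its widest difference at ZT24, 3.08 ± 0.46 (adjusted p = 1.30e-04), where old libraries held 173.9, 153.3 and 193.8 rescaled reads and young libraries 10.1, 29.5 and 24.6. At ZT8, Ms4a1 had 6417, 7845 and 5202 in old libraries and 3631, 2406 and 2422 in young libraries, a fold of 1.21 ± 0.27 (adjusted p = 0.00629). At ZT16 the 3 old libraries had 2341, 4048 and 2448 reads of Ms4a1 and the young ones 2332, 2813 and 2827, so the groups overlapped. Pou2af1, not called over the day, was called at ZT8, with 5124, 4141 and 2426 in old libraries and 1910, 1981 and 1874 in young libraries (fold 0.95 ± 0.24, adjusted p = 0.0154).

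**Figure D4:**
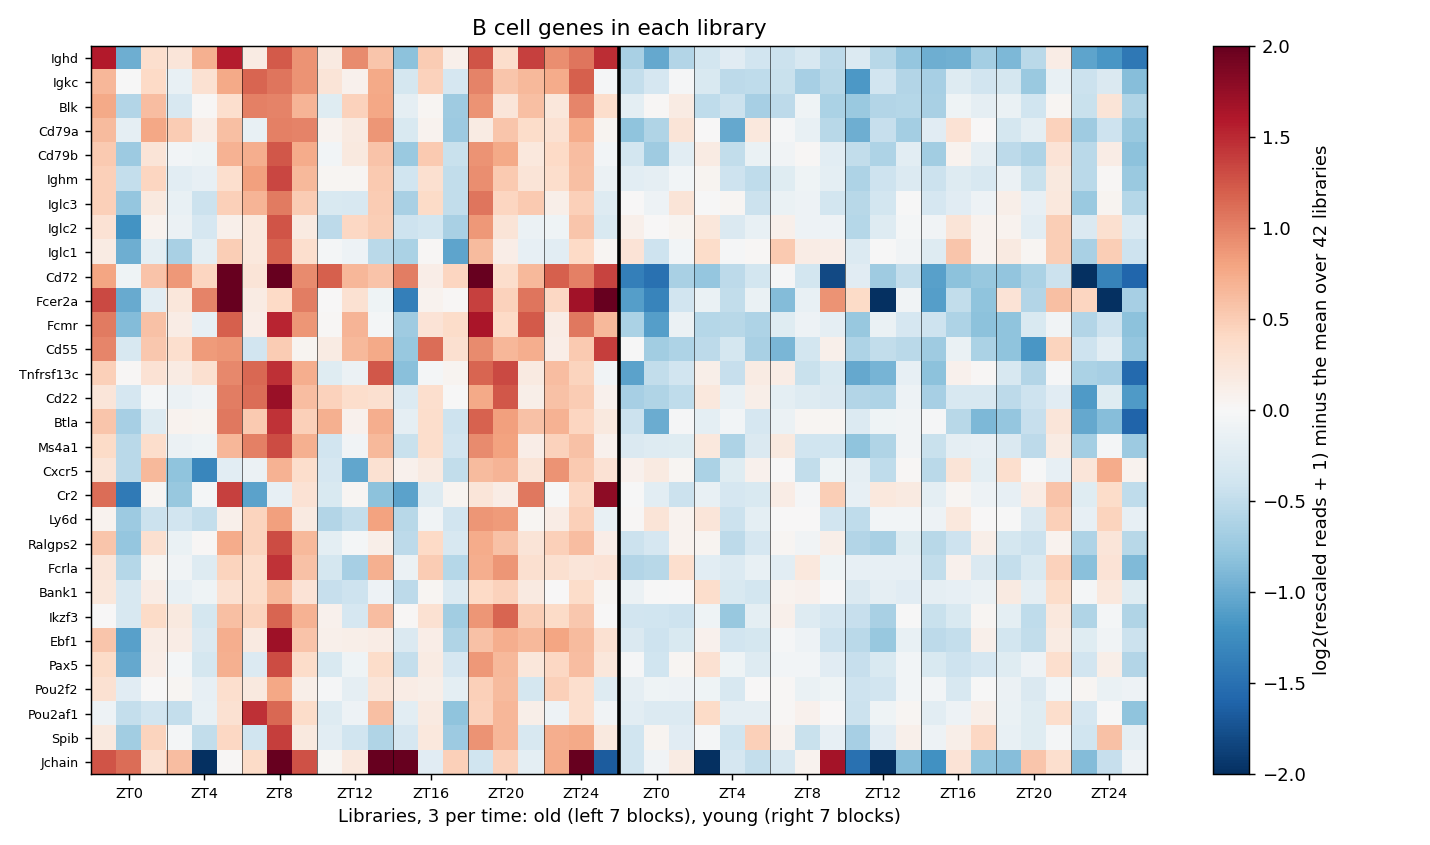
Each cell shows log2(rescaled reads + 1) of 1 of the 30 genes in 1 library, minus that gene's mean over 42 libraries, with old libraries on the left and young on the right and 3 libraries per time. The second library of old ZT8 has the highest old value in 17 of the 30 genes, and whole columns are high or low together.

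No 24 h rhythm was called in these genes. A cosine fitted to the old table called 0 of the 30 genes, where 0.308% of all genes were called. Of the 30, 0 had an unadjusted p under 0.05, against 1083 of all 12016 genes. Among young libraries none of the 30 was called by limma, where 3.62% of all genes were. Of the 30, 3 (Blk, Btla and Cxcr5) had an unadjusted p under 0.05, against 2082 of all 12113 genes. The lowest adjusted p was 0.155, in Btla. Btla was called without replicate 3 of young ZT20 (adjusted p = 0.0348). The difference in rhythm between ages was called in 0 of the 30 and 0% of all genes. A test of any difference among the 7 times gave an unadjusted p under 0.05 in 19 of the 30 in old libraries, against 1091 of all 12016 genes. In young libraries it did so in 5 of the 30, against 1821 of all 12113 genes. None of the 30 passed after adjustment (lowest 0.15 in old libraries, for Pou2af1, and 0.0535 in young libraries, for Ighd). Over all genes 32 passed in old and 353 in young libraries. edgeR and DESeq2 likewise called 0 of the 30 for a cosine in either age.

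The libraries differed from each other more in old than in young mice at the same time. The within-group SD of log2 values had a median over the 30 genes of 0.47 in old libraries and 0.29 in young libraries, and 0.31 and 0.27 over all genes. It was larger in old libraries for 29 of the 30, against 66.3% of all genes. Replicate 2 of old ZT8 held the highest sum and replicate 2 of old ZT0, at 25800, the lowest of the old libraries. Replicate 2 of old ZT8 also had the least Adgre1 (3195, the F4/80 antigen of macrophages) and the lowest sum over 14 macrophage genes, 221215, of the old libraries. Whether this has a part in the ZT8 result was not tested. Without the ZT8 libraries of both ages, 21 of the 30 genes were still higher over the day.

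The 30 genes varied together in large part, but not as 1 block. With each group's mean taken out, the mean r between pairs of them was 0.56 in old libraries and 0.39 in young libraries. Over pairs of all genes tested it was 0.00 in both ages. Across the 21 old libraries Ms4a1 moved with Cd79b (r = 0.96 on the log2 scale), Ighm (0.95), Iglc3 (0.93) and Ralgps2 (0.92), and hardly with Jchain (0.11), Cr2 (0.20) or Cd55 (0.26). Fcer2a, Cr2, Ighd, Fcmr and Cd55, of which CD23, CD21 and IgD mark B-2 more than B-1 cells, moved with each other, and with Ms4a1 to a varying degree. In old libraries r was 0.87 between Cr2 and Fcer2a, 0.88 between Fcer2a and Ighd, 0.85 between Fcmr and Ighd and 0.75 between Cd55 and Ighd, and the other 6 pairs of these 5 genes had r of 0.57 to 0.84. With Ms4a1, r was 0.64 for Fcmr, 0.54 for Ighd, 0.40 for Fcer2a, 0.26 for Cd55 and 0.20 for Cr2. After each time's mean was taken out, the first 4 values were 0.90, 0.86, 0.88 and 0.81. In young libraries, where Fcer2a had few reads, the same 4 were -0.07, 0.37, 0.48 and 0.30. These correlations were chosen with the values known, share each library's RNA and depth, and are a description.

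Replicate 3 of old ZT24 had the highest Fcer2a (170.2), Cr2 (340.3), Cd55 (552.5) and Vpreb3 (39.9) of all old libraries, while Ms4a1, at 3365, was below the old median of 4048. The same library had the lowest Mzb1 (1706), Prdm1 (77.5) and Ctla4 (18.3) of the old libraries, genes known from B-1 and antibody-secreting cells among others. Other genes read for these cells were not all low in it. Xbp1 (2890) was at its old median, and Igha (66.8, old median 60.3), Ighg2b (116.3, old median 61.2) and Ighg1 were above theirs. Bhlhe41 (514.8, old median 745.6), Zbtb32 (225.1, old median 285) and Cd5 were below theirs. These libraries and genes were picked after their values were seen. Markers of other cells were raised in it too, with 189.5 reads of Il7r (old median 68.9), 66.8 of Cd3d (34.9) and 24.8 of Cd8a (14.2), and the highest old sum of mesothelial and fibroblast genes, 130.3. Their part in these values was not tested. Replicate 3 of old ZT12 had the highest Prdm1 (645.1) and Ctla4 (281.3) of the old libraries, and an Ighd of 521.3, Fcer2a of 30 and Cr2 of 55.

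Other genes of B cells were read from lists that hold none of the 30, except that the heavy chain list shares Ighm and Ighd. All lists are counted over genes with a mean of at least 10 rescaled reads in each age, so that no gene enters through the age in which it is high. Of 31 further B cell genes tested, 18 were higher and 1 was lower in old libraries, with a median log2 fold of 0.25 against 0.00 over all genes. Mzb1, a chaperone of immunoglobulin in B-1 and marginal zone B cells, averaged 3698 ± 1634 rescaled reads in old libraries and 1983 ± 344 in young libraries (fold 0.79 ± 0.10, adjusted p = 1.21e-07). Chst3, a sulphotransferase, was higher by 1.11 (adjusted p = 9.89e-07) and the activation marker Cd83 by 0.95 (adjusted p = 2.34e-06). Rasgrp3, a Ras exchange factor, was the 1 that was lower (fold -0.65, adjusted p = 3.12e-06). Of 13 genes known from B-1 cells, 11 were higher and 0 lower, with a median fold of 0.51. Those of lowest p were Nfatc1 (0.80, adjusted p = 6.23e-10), Ctla4 (1.83, adjusted p = 9.25e-09), Il5ra (0.82, adjusted p = 1.47e-06) and Ptpn22 (0.58, adjusted p = 2.35e-06). Ctla4 and Cd5 of that list are T cell genes as well, and Itgam, which macrophages make in quantity, did not pass (fold 0.01).

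Genes of antibody-secreting cells were split. Of 10 tested, 3 were higher and 1 was lower, with a median log2 fold of -0.02. Tnfrsf17, also listed, had too few reads to test (medians of 0.76 in old and 2.0 in young libraries). Prdm1 (Blimp-1), which macrophages and T cells also express, was higher by 1.81 ± 0.15 (SE, adjusted p = 3.41e-12), with 77.5, 252.0 and 645.1 rescaled reads at the lowest, median and highest in old libraries and 34.5, 69.5 and 142.1 in young libraries. Ell2 (0.37, adjusted p = 9.36e-05) and Txndc5 (0.35, adjusted p = 1.32e-04) were also higher. Sdc1 (CD138) was the lower one, at -1.45 ± 0.19 (adjusted p = 1.00e-07), with 26.3, 67.5 and 275.3 in old libraries and 116.9, 186.0 and 306.4 in young libraries. Of the heavy chain constant genes, all 4 that could be tested were higher. Beside Ighm and Ighd these were Igha (1.46 ± 0.23, adjusted p = 6.18e-06) and Ighg2b (0.81 ± 0.20, adjusted p = 0.00208), while Ighe had no read. Of 6 genes known from age-associated B cells, 3 were higher and 1 was lower. The higher ones were Nt5e (0.63, adjusted p = 1.70e-05), Fcrl5 (0.94, adjusted p = 8.46e-05) and Tbx21 (1.08, adjusted p = 0.00121). Itgax, the CD11c gene, was lower (-0.56, adjusted p = 0.0149). Which cells the RNA of these genes came from was not tested.

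Markers of other cells moved with age beside the B cell genes. Of 16 T cell genes, 7 were higher and 1 was lower, led by Cd8b1 (1.82, adjusted p = 8.48e-04), then Cd5 and Cd3d, and the sum over the whole list of 21 was 863 to 4878 rescaled reads in old libraries and 1035 to 1690 in young libraries. Of 10 cytotoxic genes, Nkg7 alone could be compared in this way and was higher (1.22, adjusted p = 6.02e-05). Of 6 dendritic cell genes 0 were higher and 4 lower, and of 14 macrophage genes 1 was higher and 6 lower. The macrophage sum was 221215 to 373172 in old libraries and 289742 to 405539 in young libraries. Of 12 genes of resident peritoneal macrophages 7 were higher and 3 lower. The remaining lists (mast, neutrophil, eosinophil, red and mesothelial cells) had 0 to 6 such genes each, of which at most 1 was higher and at most 1 lower. The part of these cells in the B cell result was not tested.

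Cxcl13, the chemokine that draws Cxcr5-bearing B cells and is made by cavity macrophages, had 8516, 16799 and 34126 rescaled reads at the lowest, median and highest in old libraries, against 1642, 2809 and 5670 in young libraries. All 21 old libraries lay above all young ones, and the log2 fold was 2.59 ± 0.10 (SE, adjusted p = 1.03e-21). Of the B cell genes, Ms4a1 was set against it library by library. Here Pearson's r was -0.06 over the 21 old libraries (permutation p = 0.802, adjusted 0.917 over 8 relations) and Spearman's rho was -0.01 (permutation p = 0.976). Over the 21 young libraries r was 0.11 (permutation p = 0.641, adjusted 0.917) and rho 0.14 (permutation p = 0.548). With each time's mean taken out, r was 0.47 in old libraries and 0.14 in young libraries, values that were not tested. The 3 libraries of old ZT8 had the lowest Cxcl13 of the old libraries, 8516 to 9400, and 5202 to 7845 reads of Ms4a1. Without the 2 libraries farthest from the median of Ms4a1, r was 0.18 in old libraries and 0.00 in young libraries.

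Of the other partners set against Ms4a1, Adgre1 had the lowest p. Across old libraries r was -0.49 (permutation p = 0.0228, adjusted 0.182) and rho -0.48 (permutation p = 0.029, adjusted 0.232), and r was -0.25 without the 2 farthest libraries and -0.22 within times. Across young libraries r was -0.07 (permutation p = 0.759) and rho -0.07 (permutation p = 0.755). None of the 8 relations, which also took in Trbc2 of T cells and Cpa3 of mast cells, passed after adjustment.

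**Figure D5:**
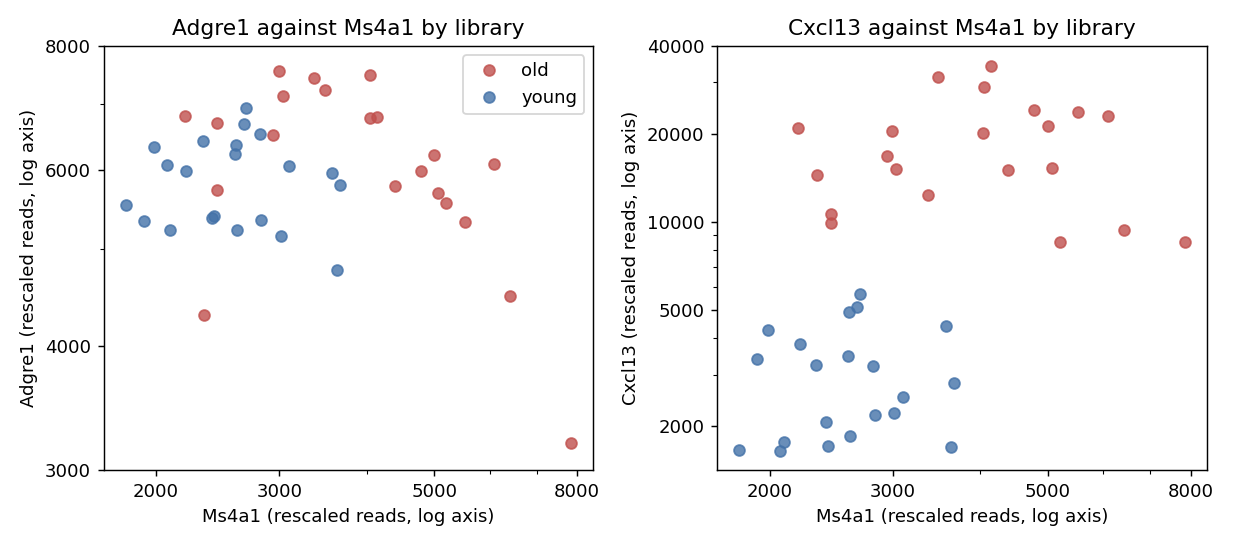
Rescaled reads of Adgre1 (left) and Cxcl13 (right) are plotted against those of Ms4a1, 1 point per library, with 21 old and 21 young libraries, on log axes. For Cxcl13 the 2 ages separate fully along the vertical axis. Within each age no correlation was called with all times pooled, and correlations within times were not tested.

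By the lower of the 2 correlations with Cd79a in old and in young libraries, among 11782 genes with a mean of at least 10 in both tables, the most alike outside the list were Gimap1 (0.69 in old and 0.77 in young), Snn (0.67 and 0.66), Gimap4 (0.66 and 0.67) and Scd1 (0.64 and 0.64), then Cnn3, Rps21, Bhlhe41 and Coro1a. Of the 100 genes most like Cd79a, 13 were B cell genes of the list, which holds 30 of the 11782 genes. Cd79a has few reads, so the same was done for Ms4a1, chosen after the first result was known, where r was higher. The first were Arap2 (0.84 and 0.84 in old and in young libraries), Gimap4 (0.90 and 0.83), H2-DMb2 (0.89 and 0.81), Scd1 (0.90 and 0.80) and Zbtb32 (0.81 and 0.80), and 17 of the 100 most alike were genes of the list. Zbtb32 and Bhlhe41, transcription factors known from B-1 cells, are among the 8 most like Ms4a1.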

How the data were processed

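Total RNA of macrophages was made into QuantSeq 3′ end libraries, per the labels' protocols. The submitters' processing notes name STAR, DESeq2 and mm10, with no versions. How reads were assigned to genes is not stated there. The deposited signal is reads divided by a size factor, in separate tables for old and young. Whole reads were recovered for 100.0% of values, within 0.001 of a whole number.

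Recovered reads of all 42 libraries were rescaled by the median of ratios. limma-trend 3.58.1 in R 4.3.3 was run on log2(value + 1) for genes with a mean of at least 10, with 14 group means for levels and a 24 h cosine and sine for rhythm, within each table. The threshold was 0.05 for p adjusted by Benjamini-Hochberg over all genes. Folds on this scale understate changes of low genes. No molecular identifiers are named in the labels, so reads are not taken as independent molecules. Correlations used 100000 permutations, which moved libraries across times. Scripts were tested on simulated data. edgeR 4.0.16 and DESeq2 1.42.0 on recovered reads, other pseudocounts, filters and scalings, and leaving out libraries were alternatives. Replicate pairs differed by more than sampling noise. The genes and lists were chosen with earlier results of these data known. Named beside the 31 genes are up to 4 genes of lowest p per B or T cell list, the 8 genes most like Cd79a, and Cxcl13, passing over Gm and Rik names. Positions are GENCODE M21 on GRCm38, and 47224 of 47643 identifiers matched a symbol.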

Additional observations from a re-analysis of the deposited data

Results flagged for a closer look

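Iglc2 stood on opposite sides at 2 times. At ZT8 the 3 old libraries (1192, 2448 and 1168 rescaled reads) were all above the 3 young ones (1102, 955.1 and 956.1), with a log2 fold of 0.587. At ZT16 they (772.6, 791.3 and 655.8) were all below the young ones (976, 1232 and 1077), with a fold of -0.563. Neither fold passed limma's test (adjusted p = 0.303 at ZT8 and 0.492 at ZT16). The contrast of these 2 times was not tested by itself, and limma's test of any age by time difference gave an unadjusted p of 0.0906 (adjusted p = 1) for Iglc2.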

How the results depend on the processing

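Between 20 and 23 genes of the 30 were higher and 0 were lower over the day in every alternative run. The count was 21 to 23 as single libraries were left out. With a mean of at least 50 it was 20, but Fcer2a and Jchain fell below that filter and were not tested. Pax5 and Jchain lost their call with no filter on low values (adjusted p = 0.0608 and 0.0712). edgeR and DESeq2 added Pou2af1. The median fold of all genes moved by at most 0.02 under other scalings. Scaling by the median of ratios or by TMM holds that median near 0 by construction, so this does not test the scaling. The count called at 1 or more times, 16, was 9 with no filter and 9 without the ZT8 libraries, which removes a time, and 11 to 17 as single libraries were left out. Without replicate 3 of young ZT8 it was 11. No such count was made over all genes. Signs that turned were those of genes not called. Without the ZT8 libraries Iglc2 was -0.029 and Ly6d -0.033. Cr2 was -0.020, -0.018 and -0.010 without replicate 1 of old ZT0, replicate 3 of old ZT4 or replicate 3 of old ZT24, and Ly6d -0.006 without replicate 3 of old ZT12. Leaving out single libraries gave -0.020 to 0.161 for Cr2 and -0.006 to 0.097 for Ly6d. Replicate numbers did not pair the samples, since deviations of same-numbered libraries had a median r of -0.01 in both ages, and with a replicate block 22 genes were higher and 14 were called at 1 or more times. Cosine calls were 0 under every alternative except 1 (Btla) in young libraries, with 0 to 1 as libraries were left out. Over all genes, cosine calls in young libraries, 438, were 236 with no filter, 262 without ZT0 and 709 by DESeq2, and in old libraries, 37, they were 91 by DESeq2. With 3 libraries at each time, small differences at single times could not be detected. The cause of these shifts was not tested.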
